A study of Mus musculus with 12 samples.

Results

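The genes described here encode the enzymes of amino acid breakdown and of the urea cycle in the liver. They are a list of 39 genes, found on the array by the gene name, transcript accession or description of each probe, and grouped by the amino acid each enzyme handles. All 39 had a probe on the array. Of these, 38 entered the tests, among 19340 genes in all. Kmo, kynurenine 3-monooxygenase, did not, because its only spot was marked as an outlier on 1 array. Haao was found through the text of its probe's description alone.

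Liver RNA was measured in 12 C57BL/6 mice, 11 weeks old, whose adrenal glands had been removed, so that every group, controls included, lacked the main source of its own glucocorticoid. There were 4 groups of 3 animals: males given vehicle (phosphate-buffered saline), females given vehicle, males given dexamethasone and females given dexamethasone. Dexamethasone, a synthetic agonist of the glucocorticoid receptor, was injected into the peritoneum at 1 mg/kg, livers were taken 6 h later, and females were in the stage of the cycle labelled diestrous 1. Each animal had its own 1-colour array, so the animal is the unit of replication.

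The liver is the main site where surplus amino acids are taken apart. Aminotransferases, dehydratases and oxygenases remove the nitrogen or open the ring, the carbon skeletons enter glucose, ketone body or energy metabolism, and the urea cycle converts the released ammonia to urea. Glucocorticoids are known to raise several of these enzymes in fasting, and Tat and Tdo2 are textbook examples of glucocorticoid-induced liver genes.

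Reference promoters are shown for the members with the largest changes among those that had one, and for 1 member that holds an arm of the receptor's site. RefSeq promoter sequence (assembly GRCm38.p6) matched 29 of the 39 members, with 33 promoters among them, of which the 250 bases before the annotated start were searched on both strands. Tat (tyrosine aminotransferase, plus strand), Tdo2 (tryptophan 2,3-dioxygenase, minus strand) and Aass (aminoadipate-semialdehyde synthase, minus strand) are the matched members whose RNA more than doubled in both sexes. Agxt (alanine-glyoxylate aminotransferase, plus strand) is a member that did not pass the test in either sex. Capitals mark the letters TATAAA in Tdo2, which lie 224 to 229 bases before the start, and in Agxt the hexamer AGAACA, an arm of the glucocorticoid receptor site, here read as its reverse complement TGTTCT. The windows are chr8:109990186-109990435 for Tat, chr3:81975729-81975978 for Tdo2, chr6:23132987-23133236 for Aass and chr1:93134990-93135239 for Agxt, each printed 5′ to 3′ toward the start.
Tat: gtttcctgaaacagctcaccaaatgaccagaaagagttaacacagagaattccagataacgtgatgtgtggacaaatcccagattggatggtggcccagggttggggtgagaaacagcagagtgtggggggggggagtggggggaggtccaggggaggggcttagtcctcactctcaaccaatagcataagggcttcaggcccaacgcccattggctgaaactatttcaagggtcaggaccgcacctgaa
Tdo2: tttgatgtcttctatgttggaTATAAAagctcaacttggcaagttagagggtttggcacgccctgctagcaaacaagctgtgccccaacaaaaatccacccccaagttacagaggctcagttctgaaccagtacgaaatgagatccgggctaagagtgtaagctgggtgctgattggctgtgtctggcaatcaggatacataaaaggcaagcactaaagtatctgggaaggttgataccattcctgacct
Aass: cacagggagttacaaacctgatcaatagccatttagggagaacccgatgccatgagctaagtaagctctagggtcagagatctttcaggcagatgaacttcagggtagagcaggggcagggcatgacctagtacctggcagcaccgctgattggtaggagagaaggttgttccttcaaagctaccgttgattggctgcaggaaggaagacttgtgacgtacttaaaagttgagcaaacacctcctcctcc
Agxt: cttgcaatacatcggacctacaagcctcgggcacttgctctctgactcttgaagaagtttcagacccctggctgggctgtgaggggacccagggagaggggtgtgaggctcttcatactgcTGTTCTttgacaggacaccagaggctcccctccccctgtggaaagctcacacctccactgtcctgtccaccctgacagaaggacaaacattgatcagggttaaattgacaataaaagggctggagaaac

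The full receptor site, which is the hexamer AGAACA, any 3 bases and then TGTTCT, and so contains the hexamer on each strand, was in 0 of the 33 member promoters and in 0.00913% of all 32851 promoters of the table. The hexamer alone was in 3 of the 33, those of Agxt (129 bases before the start), Haao (164 bases) and Bckdhb (238 bases), and in 16.1% of all promoters. None of these 3 genes passed the test for dexamethasone in either sex. The C/EBP palindrome TTGCGCAA (0.164% of all promoters) and the cAMP response element TGACGTCA (1.55%) were each in 0 of the 33. The letters of the TATA box, TATAAA, added to the search after the data were seen, were in 4 of the 33, those of Hgd, Tdo2, Hal and Ftcd, and in 12.4% of all promoters. Their far ends lay 28 and 29 bases before the start in Hal and Ftcd and 139 and 229 bases before it in Hgd and Tdo2, and in Hal and Hgd they were on the opposite strand. A match is a run of letters and no evidence of binding, and these windows leave out any more distant site.

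Expression values below are log2 signals relative to the 75th percentile of the same array, so a difference of 1 is a doubling. They are not compared between genes, because probes differ in brightness. All 38 tested members were well above background on every array by the scanner software's flag, and none was saturated. Each difference is given on the log2 scale with its standard error from a limma fit (n = 3 arrays in a group), and "passed" means a Benjamini-Hochberg adjusted p below 0.05 over all genes tested.

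In males, 10 of the 38 members were higher after dexamethasone and 0 were lower. Over all genes 10.4% were called higher in males and 12.1% lower. In females, 11 of the 38 were higher and 0 lower, beside 6.79% higher and 6.88% lower over all genes. The median log2 change over the members was 0.20 in males and 0.27 in females, against 0.01 and 0.02 over all genes. The 9 members that passed in both sexes were Tat, Hpd, Tdo2, Sds, Sdsl, Cps1, Ass1, Asl and Aass. A further 26 passed in neither sex, Gldc and Arg1 passed in females alone, and Bhmt in males alone. The difference between the sexes in the effect, given below, passed for 0 of the 38, these included. Being higher in both sexes held for 925 of all genes, or 4.78%. In whole liver, more RNA per cell and more cells of a type cannot be told apart.

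**Figure D1:**
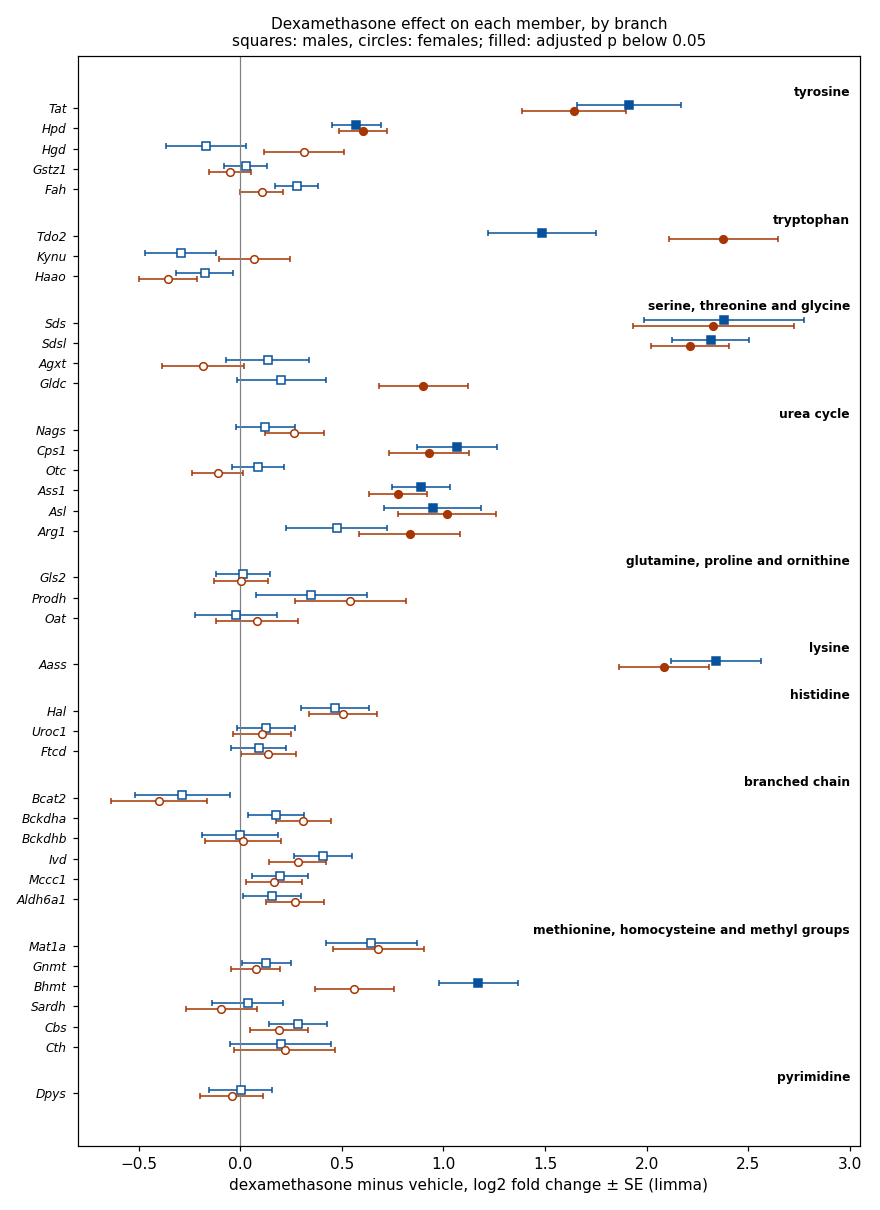
Dexamethasone minus vehicle for each of the 38 tested members, grouped by branch, as log2 fold change with its standard error (squares males, circles females; filled symbols have an adjusted p below 0.05; n = 3 arrays per group). The filled symbols lie to the right of 0, and the branched chain, histidine, pyrimidine and glutamine, proline and ornithine branches hold none.

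In the tyrosine branch the first enzymes rose and the later ones did not pass. Tat, which transfers the amino group of tyrosine and is the first step of its breakdown, gave vehicle levels of 6.40, 7.23 and 6.76 in males and dexamethasone levels of 8.44, 8.98 and 8.71. Female levels were 6.44, 6.97 and 6.49 after vehicle and 8.24, 7.95 and 8.65 after dexamethasone. Within each sex every dexamethasone array lay above every vehicle array. The change was 1.91 ± 0.26 in males (3.76-fold, adjusted p = 8.82e-04) and 1.64 ± 0.26 in females (3.12-fold, adjusted p = 0.00317). The probe lies on chromosome 8 at 108599439 to 108599498 of mm7, the build of the array design.

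Hpd, 4-hydroxyphenylpyruvate dioxygenase, acts on the product of Tat. Its male levels were 6.36, 6.41 and 6.34 after vehicle and 6.85, 6.96 and 7.02 after dexamethasone. In females they were 6.70, 6.65 and 6.68, then 7.29, 7.47 and 7.08. The groups did not overlap in either sex, and vehicle females were above vehicle males. Hpd changed by 0.57 ± 0.12 in males (adjusted p = 0.00728) and 0.60 ± 0.12 in females (adjusted p = 0.00930), about 1.49-fold and 1.52-fold. With quantile normalization the male call was lost (adjusted p = 0.130), and with normexp background correction both were (0.422 and 0.438). The female call was also lost when the 6 female arrays were fitted alone (0.0709). The next enzymes of the pathway, Hgd (homogentisate dioxygenase), Gstz1 (maleylacetoacetate isomerase) and Fah (fumarylacetoacetase), did not pass in either sex, with changes from -0.17 to 0.28 in males and -0.05 to 0.31 in females. Fah in males came closest (0.28 ± 0.11, adjusted p = 0.0853). The branch median was 0.28 in males and 0.31 in females.

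In the tryptophan branch the first enzyme, Tdo2, rose, and the later members Kynu and Haao did not pass. Acmsd, a later enzyme of the pathway that is no member of the list, passed in both sexes (1.55 in males and 2.40 in females, given with the other pathway genes). Tdo2, which opens the indole ring of tryptophan, measured 4.74, 5.12 and 5.20 in vehicle males and 6.75, 6.31 and 6.46 in dexamethasone males. Vehicle females measured 3.86, 4.71 and 3.78, and dexamethasone females 6.24, 6.34 and 6.89. Thus all 3 vehicle females lay below all 3 vehicle males, the highest at 4.71 against a lowest of 4.74, while the sexes overlapped after dexamethasone. The change was 1.49 ± 0.27 in males (2.80-fold, adjusted p = 0.00355) and 2.38 ± 0.27 in females (5.19-fold, adjusted p = 6.38e-04). The second Tdo2 probe, on chromosome 3 like the first, gave 1.58 ± 0.29 in males and 2.61 ± 0.29 in females (adjusted p = 0.00376 and 6.01e-04 over all kept probes). Kynu (kynureninase) changed by -0.29 ± 0.17 in males and 0.07 ± 0.17 in females, and Haao (3-hydroxyanthranilate dioxygenase) by -0.17 ± 0.14 and -0.35 ± 0.14. A second Kynu probe changed by -0.16 ± 0.22 in males and -0.52 ± 0.22 in females (adjusted p = 0.664 and 0.147 over all kept probes). The branch median was -0.17 in males and 0.07 in females. Over its 11 unmarked arrays Kmo lay between 2.22 and 3.24, and the marked spot, on the third female vehicle array, read 4.27. With marked spots kept, Kmo changed by 0.14 ± 0.40 in males and -0.28 ± 0.40 in females (limma, adjusted p = 0.849 and 0.708).

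In the serine, threonine and glycine branch, the pair of neighbouring genes Sds and Sdsl had 2 of the largest changes among the members. Sds, serine dehydratase, deaminates serine and threonine. Its levels were 4.08, 5.19 and 5.09 in vehicle males and 7.08, 7.70 and 6.73 in dexamethasone males. In females they were 4.37, 5.52 and 4.56 after vehicle and 6.93, 6.88 and 7.62 after dexamethasone. All 6 dexamethasone arrays were above all 6 vehicle arrays, with the vehicle arrays spread over more than 1 unit in each sex. Sds changed by 2.38 ± 0.40 in males (5.20-fold, adjusted p = 0.00237) and 2.33 ± 0.40 in females (5.02-fold, adjusted p = 0.00489).

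Sdsl, named serine dehydratase-like for its relation to Sds, was measured by a single probe on chromosome 5 (119692369 to 119692428, mm7), and the Sds probe lies on the same chromosome (119717082 to 119717141). Sdsl measured 1.83, 2.33 and 2.08 in vehicle males and 4.24, 4.66 and 4.27 in dexamethasone males. Females measured 1.93, 2.03 and 1.71, then 4.03, 3.87 and 4.41. Neither sex showed overlap, and the vehicle spread was narrower than for Sds. The change was 2.31 ± 0.19 in males (4.97-fold, adjusted p = 9.34e-05) and 2.21 ± 0.19 in females (4.64-fold, adjusted p = 1.82e-04). Sds and Sdsl are related in sequence, and how far each probe also reads the other gene was not tested.

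Gldc is the decarboxylase of the glycine cleavage system. Female levels were 2.28, 3.03 and 2.42 after vehicle and 3.29, 3.71 and 3.44 after dexamethasone, without overlap. Male levels were 2.49, 2.73 and 2.58, then 3.14, 2.54 and 2.73, and these overlapped. The change was 0.90 ± 0.22 in females (1.87-fold, adjusted p = 0.0219) and 0.20 ± 0.22 in males (adjusted p = 0.564). The difference between the sexes, 0.70 (95% interval 0.02 to 1.38), did not pass over all genes (adjusted p = 0.934). The female call was lost without female vehicle array 1 (adjusted p = 0.0811) or 3 (0.0718) or female dexamethasone array 2 (0.0762), and with normexp background correction (0.205). Fitting the 6 female arrays alone also ended it (0.0769). Agxt, which clears glyoxylate in peroxisomes, changed by 0.13 ± 0.20 in males and -0.18 ± 0.20 in females and did not pass.

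In the urea cycle branch, 3 of 6 members (Cps1, Ass1 and Asl) rose in both sexes and Arg1 in females. Cps1, carbamoyl-phosphate synthetase, catalyses the entry step of ammonia in mitochondria. Vehicle males measured 5.94, 6.35 and 6.62 and dexamethasone males 7.47, 7.41 and 7.23. Vehicle females measured 6.41, 6.82 and 6.29 and dexamethasone females 7.31, 7.37 and 7.63. Treated and control arrays were separate in both sexes. Cps1 changed by 1.07 ± 0.19 in males (2.09-fold, adjusted p = 0.00381) and 0.93 ± 0.19 in females (1.90-fold, adjusted p = 0.0117). Normexp background correction ended both calls (adjusted p = 0.0921 in males and 0.149 in females).

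Ass1, argininosuccinate synthase, joins citrulline and aspartate, which brings in the second nitrogen of urea. It gave 6.84, 7.05 and 7.07 in vehicle males and 7.79, 8.11 and 7.72 in dexamethasone males. Female arrays gave 7.16, 7.47 and 7.31, then 7.99, 8.05 and 8.23. Again the treatments did not overlap within a sex. The change was 0.89 ± 0.14 in males (1.85-fold, adjusted p = 0.00206) and 0.78 ± 0.14 in females (1.71-fold, adjusted p = 0.00707). A second Ass1 probe gave 0.95 ± 0.17 and 0.70 ± 0.17 (adjusted p = 0.00319 and 0.0222 over all kept probes). With normexp neither sex passed (0.0900 in males and 0.238 in females).

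Asl, argininosuccinate lyase, splits the product of Ass1 into arginine and fumarate. Its male levels were 5.28, 5.86 and 5.94 after vehicle and 6.62, 6.73 and 6.58 after dexamethasone. For females they were 5.57, 6.33 and 5.45, then 6.71, 6.69 and 7.003. There was no overlap, and the second female vehicle array stood nearest to the treated ones. Asl changed by 0.95 ± 0.24 in males (1.93-fold, adjusted p = 0.0177) and 1.02 ± 0.24 in females (2.03-fold, adjusted p = 0.0194). In males the call was lost when vehicle array 1 (adjusted p = 0.0754) or dexamethasone array 2 (0.0561) was left out. The female call was lost without female vehicle array 1 (0.0717) or 3 (0.0679), without female dexamethasone array 3 (0.0546), and with the slide as a block (0.0615). It was also lost when the 6 female arrays were fitted alone (0.0700). Normexp ended both calls (0.156 in males and 0.202 in females).

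Arg1, arginase, releases urea and ornithine at the end of the cycle. Female levels were 6.54, 7.10 and 6.24 after vehicle and 7.43, 7.35 and 7.61 after dexamethasone, which did not overlap. Male levels were 6.39, 7.02 and 7.17, then 7.46, 7.07 and 7.47, and the lowest dexamethasone male lay below the highest vehicle male. The change was 0.84 ± 0.25 in females (1.78-fold, adjusted p = 0.0492) and 0.48 ± 0.25 in males (adjusted p = 0.202). The female value sat at the threshold: 17 of 23 alternative fits did not call it, including those with normexp (adjusted p = 0.367) and with the slide as a block (0.113) and that with the replicate number as a block (0.0832). Leaving out 1 array at a time also ended it for all 3 female dexamethasone arrays (0.104, 0.0877 and 0.114) and for female vehicle arrays 1 and 3 (0.129 and 0.151). The same held for male vehicle arrays 2 and 3 (0.0665 and 0.0541) and for all 3 male dexamethasone arrays (0.0645, 0.0548 and 0.0598). Without a male array the female change stayed at 0.84, and only the spread shared by all arrays and the adjustment over genes moved.

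Nags makes the activator of Cps1, and Otc (ornithine transcarbamylase) makes citrulline. Nags changed by 0.12 ± 0.14 in males and 0.27 ± 0.14 in females and did not pass. Without female dexamethasone array 3 the female Nags change was 0.42 and passed (adjusted p = 0.0449), as it did with array weights (0.0240). Otc has 3 probes on the X chromosome, and they disagreed. The brightest, at 8753291 to 8753350 (mm7), which stands for the gene in the counts, changed by 0.09 ± 0.13 in males and -0.11 ± 0.13 in females. The probe at 8749268 to 8749327 measured -1.37, -1.25 and -1.59 in vehicle males and -1.92, -1.72 and -1.93 in dexamethasone males, and -1.31, -1.22 and -1.34 then -2.08, -1.99 and -2.18 in females. It fell by 0.45 ± 0.13 in males and by 0.79 ± 0.13 in females (adjusted p = 0.0271 and 0.00337 over all kept probes), with no overlap in either sex. The third probe changed by -0.48 ± 0.18 and -0.40 ± 0.18 and did not pass (adjusted p = 0.0752 and 0.162). With all 3 averaged, Otc fell in females (by 0.44, adjusted p = 0.0300), so the count of 0 lower members rests on the choice of probe. The branch median was 0.68 in males and 0.81 in females.

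**Figure D2:**
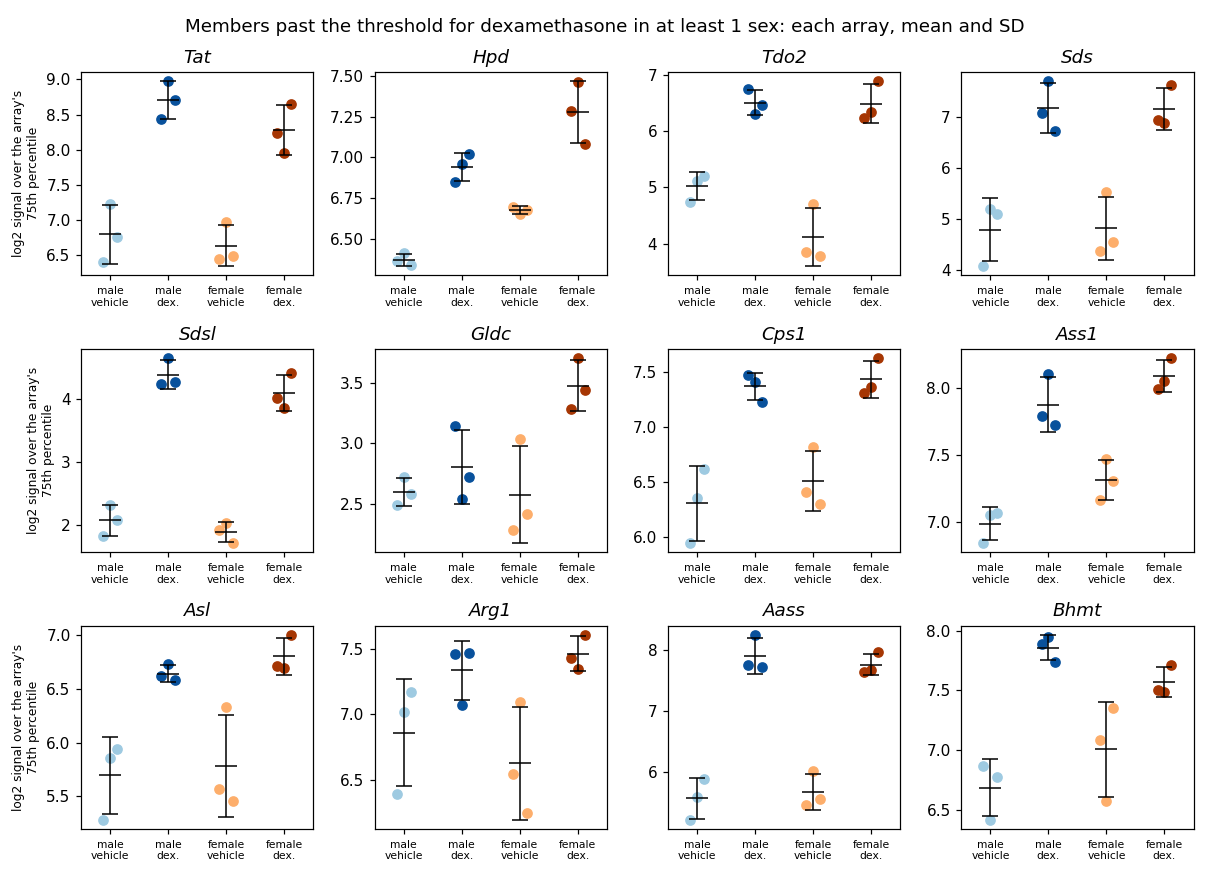
Log2 signal over the array's 75th percentile on each of the 12 arrays (points), with the group mean and SD (bars), for the 12 members that passed in at least 1 sex; dex. is dexamethasone. The treated and control points are separate in both sexes for Tat, Hpd, Tdo2, Sds, Sdsl, Cps1, Ass1, Asl, Aass and Bhmt, and overlap in males for Gldc and Arg1.

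Lysine breakdown is represented by 1 gene. Aass is a bifunctional mitochondrial enzyme that carries out the first 2 steps, and its probe lies on chromosome 6 (23013446 to 23013505, mm7). Levels were 5.22, 5.60 and 5.89 in vehicle males and 7.76, 8.26 and 7.73 in dexamethasone males. Female levels were 5.47, 6.01 and 5.56, then 7.65, 7.68 and 7.97. The gap between the highest vehicle and the lowest dexamethasone array was 1.83 in males and 1.64 in females. Aass changed by 2.34 ± 0.22 in males (5.06-fold, adjusted p = 1.77e-04) and 2.09 ± 0.22 in females (4.24-fold, adjusted p = 4.41e-04).

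Among the 6 members that handle methionine, homocysteine and methyl groups, Bhmt passed, and in males. Bhmt, betaine-homocysteine methyltransferase, remakes methionine from homocysteine with betaine. It measured 6.87, 6.42 and 6.77 in vehicle males and 7.89, 7.94 and 7.74 in dexamethasone males. Vehicle females measured 7.09, 6.58 and 7.35 and dexamethasone females 7.51, 7.49 and 7.71. Treated arrays lay above the control arrays in both sexes, by a margin of 0.87 in males and 0.13 in females. The change was 1.17 ± 0.20 in males (2.25-fold, adjusted p = 0.00247) and 0.56 ± 0.20 in females (1.48-fold, adjusted p = 0.0845). The female value passed without female vehicle array 3 (adjusted p = 0.0443), and the male call was lost with normexp (0.0530).

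Mat1a, which makes S-adenosylmethionine in the liver, changed by a like amount in both sexes and missed the threshold in each. Its changes were 0.65 ± 0.22 in males (adjusted p = 0.0626) and 0.68 ± 0.22 in females (adjusted p = 0.0710). In males 2 treated arrays read 7.77 and 7.76 and the other 6.90, beside vehicle levels of 6.75, 6.90 and 6.85. Without that lower array both sexes passed (adjusted p = 0.00554 and 0.0164), the male change at 0.94 and the female still at 0.68. A male array enters the female result only through the spread shared by all arrays and the adjustment over genes. Gnmt and Sardh, which use and recover methyl groups through glycine and sarcosine, and Cbs and Cth, the enzymes of transsulfuration, ranged from 0.04 to 0.28 in males and -0.09 to 0.22 in females and did not pass. The branch median was 0.24 in males and 0.20 in females.

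The other branches held no member that passed in either sex. In the histidine branch, Hal (histidine ammonia-lyase, the first step) changed by 0.47 ± 0.17 in males and 0.51 ± 0.17 in females (adjusted p = 0.0687 and 0.0693), while Uroc1 and Ftcd, the later enzymes, ranged from 0.09 to 0.14. Without female vehicle array 2, Hal passed in both sexes (0.0334 and 0.0220), with the male change still at 0.47. The branched chain branch held 6 members: Bcat2 (the mitochondrial aminotransferase), Bckdha and Bckdhb (subunits of the branched chain dehydrogenase), Ivd and Mccc1 (leucine) and Aldh6a1 (valine). Their changes ranged from -0.28 to 0.41 in males and -0.40 to 0.31 in females, with medians of 0.17 and 0.22. Ivd in males was nearest to passing (0.41 ± 0.14, adjusted p = 0.0620). It passed without female dexamethasone array 3 (0.0209), with the male change still at 0.41. A second Ivd probe changed by 0.18 ± 0.12 in males (adjusted p = 0.329 over all kept probes). Among the enzymes of glutamine, proline and ornithine, Gls2 (glutaminase) changed by 0.01 ± 0.13 and 0.00 ± 0.13, Oat (ornithine aminotransferase) by -0.02 ± 0.20 and 0.08 ± 0.20, and Prodh (proline dehydrogenase) by 0.35 ± 0.27 and 0.54 ± 0.27, males first. Dpys, dihydropyrimidinase of pyrimidine breakdown, changed by 0.00 ± 0.15 and -0.04 ± 0.15. Besides Otc, the members Kynu, Bcat2, Bckdha, Bckdhb, Mccc1 and Dpys have several probes whose changes differed in sign in at least 1 sex. For Bckdhb both were near 0 in males (-4.1e-05 and 0.019).

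When the effect was averaged over the sexes, a comparison over all 12 arrays that was added after the data were seen, 15 of the 38 members were higher and 0 lower. Over all genes 16.6% were then called higher and 17.4% lower. The members that this added to those called in both sexes were Arg1, Bhmt, Gldc, Hal, Ivd and Mat1a. Hal averaged 0.49 ± 0.12 (adjusted p = 0.00914), Mat1a 0.66 ± 0.16 (0.00871) and Ivd 0.35 ± 0.10 (0.0217). A second Ivd probe averaged 0.19 ± 0.09 and did not pass (adjusted p = 0.107 over all kept probes). With normexp these 3 averaged calls were lost (0.267 for Hal, 0.175 for Mat1a and 0.428 for Ivd), as were those of Hpd, Gldc and Arg1 (0.166, 0.167 and 0.162). That of Ivd was also lost without female vehicle array 3 (0.0505), and that of Arg1 with quantile normalization (0.115). The count of 0 lower also changed with the processing. Haao was called lower by limma with quantile normalization (-0.32, adjusted p = 0.0212) and without male vehicle array 2 (0.0387) or female vehicle array 1 (0.0442). Otc was called lower with its probes averaged (-0.36, 0.00633). Its probes other than the brightest also passed lower on their own (0.0193 and 5.07e-04 over all kept probes). Nags, Prodh and Bckdha became higher calls in other fits.

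The effect of dexamethasone was set against sex directly, as the female minus the male log2 change. It passed for 0 of the 38 members by limma, with 2 at an unadjusted p below 0.05. Over all genes 0.00517% passed, which is 1 gene, and 5.34% had an unadjusted p below 0.05. The female change was the larger in 17 of the 38. The extremes were Tdo2 (0.89, 95% interval 0.06 to 1.73, adjusted p = 0.921) and Bhmt (-0.61, interval -1.22 to 0.00, adjusted p = 0.937). For 30 members the whole 95% interval lay within 1 log2 unit of 0, so a larger difference lies outside it. Sds was the least precise (-0.05, interval -1.29 to 1.18). For Tat the interval was -1.07 to 0.53, for Sdsl -0.70 to 0.49 and for Aass -0.94 to 0.43.

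**Figure D3:**
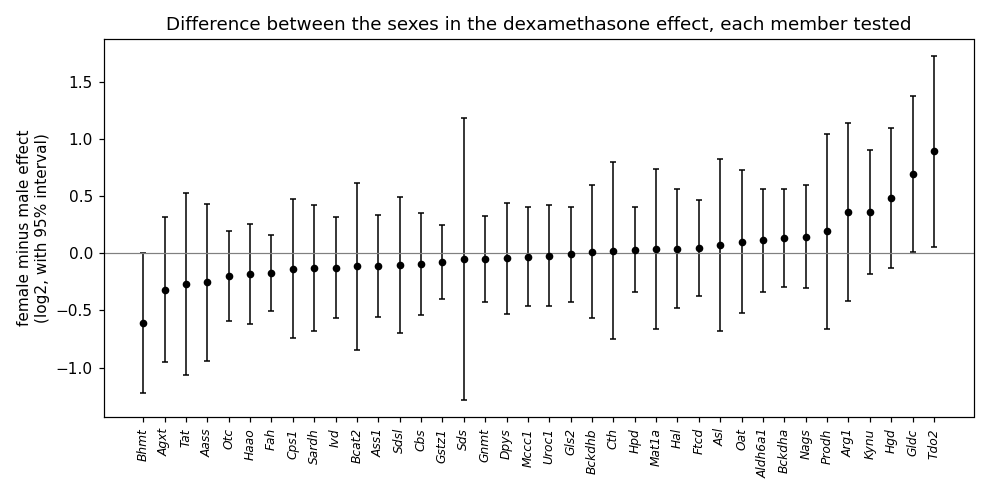
Female minus male dexamethasone effect for each of the 38 tested members (log2, points) with its 95% interval from limma (bars), in order of size. The points run from -0.61 (Bhmt) to 0.89 (Tdo2), and 36 of the 38 intervals include 0.

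The sexes themselves were also compared under each treatment. Under vehicle 0 of 38 members passed, beside 1.97% called over all genes in limma. Another count, 9 members at an unadjusted p below 0.05, has no share over all genes to set beside it. The lowest adjusted p was that of Tdo2, lower in females by 0.91 (interval -1.50 to -0.32, adjusted p = 0.140), and 27 of the 38 members were higher in females. The median difference was 0.16 over the members and -0.05 over all genes. Tdo2 passed without female vehicle array 2 (adjusted p = 0.0327). Under dexamethasone 0 of 38 passed, beside 5.81% over all genes. The 7 members at an unadjusted p below 0.05 again have no share over all genes beside them. Hgd had the lowest adjusted p under dexamethasone (0.71 higher in females, interval 0.28 to 1.15, adjusted p = 0.0599), and 25 of the 38 were higher in females. The median difference was then 0.14 over the members and -0.05 over all genes. Without female vehicle array 2, Hgd (0.0466) and Gldc (0.0498) passed, with differences of 0.71 and 0.68 that do not use that array.

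The arrays were spread over 3 slides of 4 arrays, and each treatment was present within a sex on slides 1 and 3 for males and on slides 1 and 2 for females. Every member called higher also differed in that direction within each of these slides: 10 of 10 on both male slides and 11 of 11 on both female slides. This direction was fixed in advance, because treated and control arrays of these members did not overlap within the sex. It is therefore no check on the slide. The sizes varied between slides. Sds differed by 3.62 on slide 1 and 1.71 on slide 3 in males, and by 1.36 on slide 1 and 2.91 on slide 2 in females. The smallest difference was that of Arg1 on female slide 1 (0.25). Within each of these slides the controls of a sex had lower position numbers than its treated animals. In males every vehicle array lay at position 1 and no dexamethasone array did, so position and treatment cannot be told apart there. In females positions 3 and 4 held both treatments, on different slides, a comparison added after the data were seen. The 11 called members were higher after dexamethasone at each (by 0.25 for Gldc to 2.00 for Sdsl at position 3, and by 0.60 for Hpd to 2.84 for Tdo2 at position 4). Here too the direction was fixed by the lack of overlap, and each position held 1 vehicle array, so an effect of position was not tested. The 5 members Tat, Tdo2, Sds, Sdsl and Aass were called in both sexes in all of the alternative fits, 23 for each effect.

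**Figure D4:**
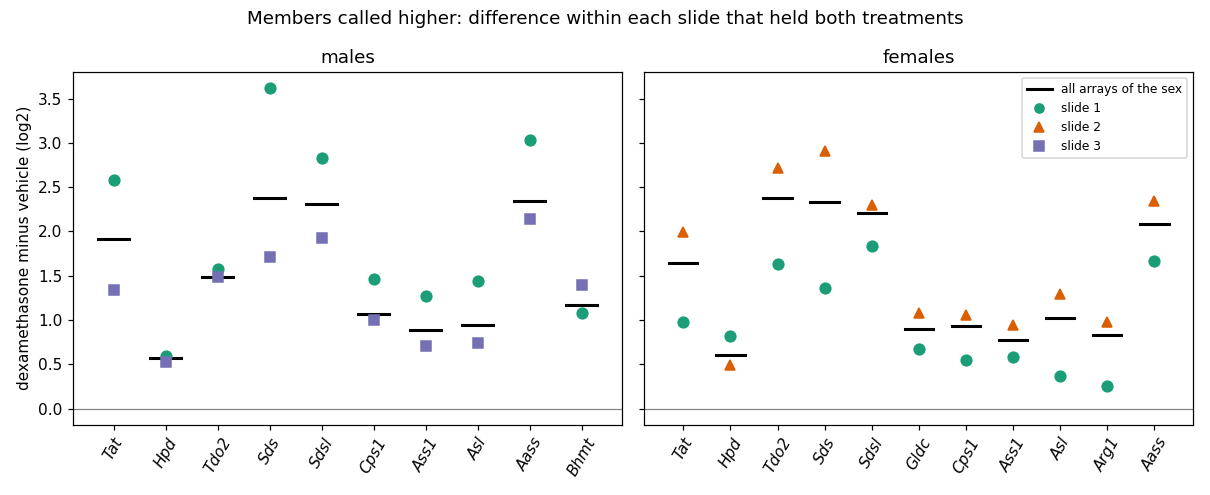
Dexamethasone minus vehicle (log2) within each slide that held both treatments (coloured symbols; 1 or 2 arrays per treatment), beside the value from all arrays of the sex (black line), for the members called higher. All symbols lie above 0, as they must, because treated and control arrays of these members did not overlap within the sex. They run from 0.25 (Arg1, females, slide 1) to 3.62 (Sds, males, slide 1).

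Markers of liver cell types were read beside these results. The hepatocyte markers tested (7 of 8 listed) were well above background on all arrays. Of the 7, 4 were higher after dexamethasone in males and 1 in females, with medians of 0.40 and 0.22. Over all genes 10.4% were called higher and 12.1% lower in males, and 6.79% and 6.88% in females. Ttr changed by -0.39 in males and -0.59 in females and did not pass (limma, adjusted p = 0.178 and 0.0688). Trf changed by -0.12 and -0.08 and did not pass either. The mean level of the 7 was 7.50 to 7.55 in vehicle males and 7.69 to 7.88 in dexamethasone males. In females it was 7.47 to 7.68 after vehicle and 7.62 to 7.75 after dexamethasone. Stellate cell and fibroblast markers fell in males for 3 of 5 (median -1.08) and for 0 of 5 in females (median -0.15), lymphocyte markers for 2 of 4 and 1 of 4, and Kupffer cell and macrophage markers for 1 of 6 and 0 of 6. The 5 endothelial markers went both ways. Lyve1 was higher in both sexes (1.89 and 1.94, adjusted p = 0.0171 and 0.0230), Clec4g was lower in both (-1.09 and -0.79, adjusted p = 0.00811 and 0.0477) and Kdr was lower in males (-1.22, adjusted p = 0.0162). Of 4 cholangiocyte markers, Sox9 was higher in males (0.95, adjusted p = 0.0331) and 0 passed in females. Of the pancreatic acinar markers, Cela1 was lower in males (-1.08, adjusted p = 0.0252), and the 1 kidney tubule marker tested did not pass in either sex. Mean levels of the stellate list were 2.04 to 2.39 in vehicle males and 1.24 to 1.52 in dexamethasone males, and 2.15 to 2.31 then 1.80 to 2.12 in females. The part of these shifts in the members' changes was not tested.

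Of 55 other enzymes and carriers of the same pathways listed, 54 were tested. In males 13 were higher and 3 lower, beside 10.4% and 12.1% over all genes. In females 9 were higher and 0 lower, beside 6.79% and 6.88%. The medians were 0.17 in males and 0.12 in females. Averaged over the sexes, 20 were higher and 7 lower, beside 16.6% and 17.4% over all genes. None of the genes called lower is named below. The largest change among the pathway genes past the threshold in both sexes was that of Slc25a15, the mitochondrial ornithine carrier of the urea cycle. It measured 0.46, 0.72 and 0.79 in vehicle males and 2.98, 3.096 and 2.14 in dexamethasone males, and 0.21, 1.29 and 0.47 then 2.76, 2.95 and 4.07 in females. The treatments did not overlap, and the change was 2.08 ± 0.39 in males and 2.60 ± 0.39 in females (adjusted p = 0.00408 and 0.00254). Acmsd, a decarboxylase further down the tryptophan pathway, changed by 1.55 ± 0.41 and 2.40 ± 0.41 (adjusted p = 0.0215 and 0.00508), from levels of -5.39 to -4.34 on the vehicle arrays to -4.30 to -1.87 on the dexamethasone arrays. The cytosolic aspartate aminotransferase Got1 changed by 1.93 ± 0.39 and 1.84 ± 0.39 (0.00597 and 0.0120). The mitochondrial alanine aminotransferase Gpt2 changed by 1.64 ± 0.21 and 1.78 ± 0.21 (6.50e-04 and 7.44e-04), and Cdo1, cysteine dioxygenase, by 1.18 ± 0.13 and 1.05 ± 0.13 (3.13e-04 and 8.95e-04).

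A few further genes at branch points changed less. Glul, glutamine synthetase, rose by 0.37 ± 0.11 in males and 0.41 ± 0.11 in females (adjusted p = 0.0365 and 0.0359). Glud1, glutamate dehydrogenase, changed by 0.25 ± 0.12 and 0.32 ± 0.12 and did not pass in either sex (adjusted p = 0.160 and 0.103). Bckdk, the kinase that inactivates the branched chain dehydrogenase, changed by 0.03 ± 0.17 in each sex.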

How the data were processed

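The authors' scanner files hold intensities quantified with Agilent Feature Extraction 9.5, per the submitters' processing notes; the processed signal used here was background-subtracted and detrended by that software, per the file headers. The deposited series values, also intensities, equalled it exactly. Labelling used 500 ng of total RNA and Cy3. Of 45018 spots per array, 1639 controls and outlier-marked spots were left out. Signals were taken to log2 and each array's 75th percentile was subtracted (578 to 1251 before scaling). Probes well above background, by the software's flag, on all 3 arrays of at least 1 group were kept (28842 of 41174; 65.1 to 71.8% were above background per array), and the brightest probe stood for a gene. The small number of arrays limits the precision. Limma 3.58.1 (R 4.3.3) fitted 4 group means to 12 arrays (8 residual degrees of freedom), with Benjamini-Hochberg adjustment over 19340 genes in each comparison, and was tested on simulated data. Alternatives were other background corrections and scalings, filters, probe summaries, slide and replicate blocks, array weights and leaving out each array. Members and lists were chosen with earlier results of these data known. The text gives values per array for every member past the threshold for dexamethasone in either sex, and names others of the pathway as the 5 largest past it in both sexes, plus Glul, Glud1, Bckdk and 1 gene that is not reported here. Same-numbered replicates are not said to be related: their correlations were -0.20 to -0.14 in males and -0.11 to 0.33 in females, so numbers were not treated as pairs. Figures used matplotlib.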

Additional observations from a re-analysis of the deposited data

How the results depend on the processing

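The 21 member calls were tried in 23 alternative fits of each male and female effect. They were kept in 443 of 483 fits and lost in 40, and 0 reversed. These fits share most of their data, and those that left out an array of the other sex kept the log2 change itself. In 16 fits a member not called became called. With normexp background correction, 5 members were called in males, 5 in females and 9 averaged over the sexes. It moved the median of all genes to 0.26 in males and 0.24 in females, from 0.01 and 0.02. The calls that normexp ended were those of Hpd, Cps1, Ass1 and Asl in both sexes, Bhmt in males and Gldc and Arg1 in females. Fitting the 6 arrays of the sex alone called 7 in females. The female calls it ended were those of Hpd, Gldc, Asl and Arg1. Leaving out 1 array called 9 to 11 in males and 8 to 12 in females. With the replicate number as a block, which the labels do not say pairs animals, 10 were called in males and 10 in females. The sex difference under vehicle called 1 member with array weights and 0 to 1 with an array left out. Under dexamethasone it called 2 with quantile normalization, 1 with the capped normexp correction, 1 without the filter on dim probes, 1 with array weights and 0 to 2 with an array left out.

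Branch medians in males became 0.16 (tyrosine), 0.38 (urea cycle) and -0.20 (glutamine, proline and ornithine) with quantile normalization. With normexp they became 0.0692 (tyrosine), -0.38 (tryptophan), -0.0691 (histidine) and -0.00959 (branched chain), and the branched chain median was 0.00901 with probes averaged. The male urea cycle median ranged from 0.49 to 0.78 with 1 array left out. In females normexp gave 0.15 (tyrosine), 0.57 (urea cycle), -0.10 (histidine) and 9.1e-04 (branched chain), array weights gave 0.21 (tyrosine), and averaged probes gave -0.23 (tryptophan). With 1 array left out the female tyrosine median ranged from 0.11 to 0.46 and the tryptophan median from -0.0421 to 0.25. The cause was not tested. Over all genes, the calls numbered 4359 in males (908 with normexp, 2342 without male vehicle array 1) and 2644 in females (536 with normexp, 4036 with array weights, 1504, 1742 and 1703 without female vehicle array 1 or 3 or female dexamethasone array 2, 1180 with 6 arrays). The difference of effects called 1 (0 to 32 with other settings, except 2278 without the filter on dim probes). The sex difference called 381 under vehicle (88 to 742) and 1123 under dexamethasone (59 to 4233).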
